A study of Mus musculus with 7 samples.

Results

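Imprinted genes were examined by cluster in mouse neural stem cells with reduced KAP1. The set holds 44 genes named by symbol, spread over 21 clusters, and a gene entered when its Ensembl identifier, without the version, matched one of these symbols. Of the 44 genes, 10 are among the 3389 genes in the authors' deposited table, and 34 are not listed there. The groups were 4 libraries of shKAP1 cells and 3 libraries of control cells. The control libraries carry the numbers 1, 2 and 4, and whether another control library entered the authors' fit is not known. All were neural stem cells cultured from mouse brain tissue of the subventricular zone with EGF and FGF-2, and a short hairpin RNA was delivered by nucleofection, an electrical transfer of nucleic acid into cells. The labels give neither strain nor age of the mice, nor what the control cells received, nor whether the libraries came from separate cultures, so the p-values reflect the spread between these libraries alone, which may be technical.

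An imprinted gene is expressed mainly from the copy inherited from 1 parent. Imprinted genes lie in clusters, each governed by a control region whose DNA methylation is set in the germ line and differs between the parental copies. The zinc finger protein ZFP57 binds the methylated copy of such regions and recruits KAP1, the corepressor encoded by Trim28, which keeps this methylation in place in the early mouse embryo. Several imprinted genes, among them Dlk1, Igf2 and Cdkn1c, are known to act in neural stem cells.

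The deposited table holds 1 comparison, shKAP1 over control, with no value per library. Each listed gene has a mean normalized count over the libraries, a log2 fold change, the standard error (SE) of that change and an adjusted p from the authors' DESeq2 fit. The table ends at an adjusted p of 0.0499, so a gene that is not listed either missed 0.05 or received no adjusted p, and is not shown to be unchanged. Its header does not name the numerator, and a negative sign was taken to mean lower in shKAP1 because Trim28 carries one. In the authors' deposited table Trim28 stands at a log2 fold change of -1.17 (SE 0.05, DESeq2 adjusted p = 1.78e-101), which is 44.5% of the control level. All values are sums over both parental copies, so neither loss nor gain of imprinting can be read from them. In bulk RNA, fewer cells of a type and less RNA per cell cannot be told apart.

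The sequence that ZFP57 recognises in the mouse when its CpG is methylated, TGCCGC, was looked up in the promoter windows of the listed genes, which run from 250 bases before to 50 after each RefSeq start (build GRCm38.p6). Counting both strands, it was found in 11.6% of all 32851 windows and in 13 of the 56 windows of the set, which cover 36 of its genes. By gene, 12 of these 36 had a match (33.3%), against 13.1% of all 27025 genes. The motif contains a CpG, and windows of the set had a median of 13 CpG pairs against 7 over all windows, and the set had more windows per gene. The part of either in this difference was not tested. Cdkn1c and Peg10 have no window, so they were not searched. Among the listed genes, 8 have windows, and Nap1l5 and Grb10 had a match. That is 25.0% of the 8 genes, and 2 of their 13 windows (15.4%), beside the 13.1% and 11.6% above. Nap1l5 was lower and Grb10 higher in shKAP1. Both sequences are shown because they carry the motif, and that of Peg3 because it is shared with a second imprinted gene. Capitals mark the motif, which reads GCGGCA where it lies on the other strand.
Nap1l5: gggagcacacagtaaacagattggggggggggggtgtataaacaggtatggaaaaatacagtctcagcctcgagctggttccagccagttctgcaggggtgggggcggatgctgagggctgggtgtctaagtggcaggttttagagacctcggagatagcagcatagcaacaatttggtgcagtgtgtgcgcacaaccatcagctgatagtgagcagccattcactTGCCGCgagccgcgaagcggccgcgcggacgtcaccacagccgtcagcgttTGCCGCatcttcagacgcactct
Grb10: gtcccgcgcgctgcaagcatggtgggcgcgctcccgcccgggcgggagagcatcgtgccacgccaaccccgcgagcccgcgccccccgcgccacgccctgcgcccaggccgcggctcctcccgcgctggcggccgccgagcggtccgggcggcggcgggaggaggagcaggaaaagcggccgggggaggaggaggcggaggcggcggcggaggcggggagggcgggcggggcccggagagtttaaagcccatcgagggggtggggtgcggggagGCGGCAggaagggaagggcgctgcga
Peg3: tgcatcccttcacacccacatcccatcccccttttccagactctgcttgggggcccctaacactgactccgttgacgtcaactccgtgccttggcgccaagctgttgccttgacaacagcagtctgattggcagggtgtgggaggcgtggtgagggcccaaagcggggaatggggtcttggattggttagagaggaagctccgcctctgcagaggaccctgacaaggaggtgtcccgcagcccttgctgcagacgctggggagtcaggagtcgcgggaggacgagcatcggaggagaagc
The Nap1l5 window lies at chr6:58907077-58907376 on the minus strand and holds 2 motifs and 17 CpG pairs. Grb10 has 2 windows, and the one printed, at chr11:12037371-12037670 on the minus strand, holds 1 motif and 45 CpG pairs. The other, at chr11:12027922-12028221, holds 0 motifs and 9 CpG pairs. The Peg3 window, at chr7:6730370-6730669 on the minus strand, holds 13 CpG pairs and none of these letters, and 263 of its bases also belong to the promoter window of Usp29, which is transcribed in the opposite direction. These matches are letters in a window and were not measured as binding or methylation.

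Of the 44 imprinted genes, 4 were higher in shKAP1, 6 were lower and 34 were not listed. That is 22.7% of the set, beside 26.3% of the 12905 genes given an adjusted p by the authors, a share near this background. How many of the 44 were given one is unknown. By direction, the background over all tested genes was 12.6% higher and 13.7% lower. The median log2 fold change of the 10 listed imprinted genes was -0.20, beside -0.13 over all listed genes. Their median fold, in either direction, was 1.28, against 1.22 over all listed genes. Of the 44 genes, Cdkn1c and Peg10 were listed at 1.5-fold or more, beside 2.77% of the tested genes. They are 20.0% of the 10 listed genes, beside 10.6% of all listed genes at that fold. For 5 of the 44 genes the whole 95% interval was past 1.2-fold, beside 4.89% of the tested genes. A Bonferroni limit over the tested genes was passed by 5 of the 44, beside 7.21% of the tested genes.

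**Figure D1:**
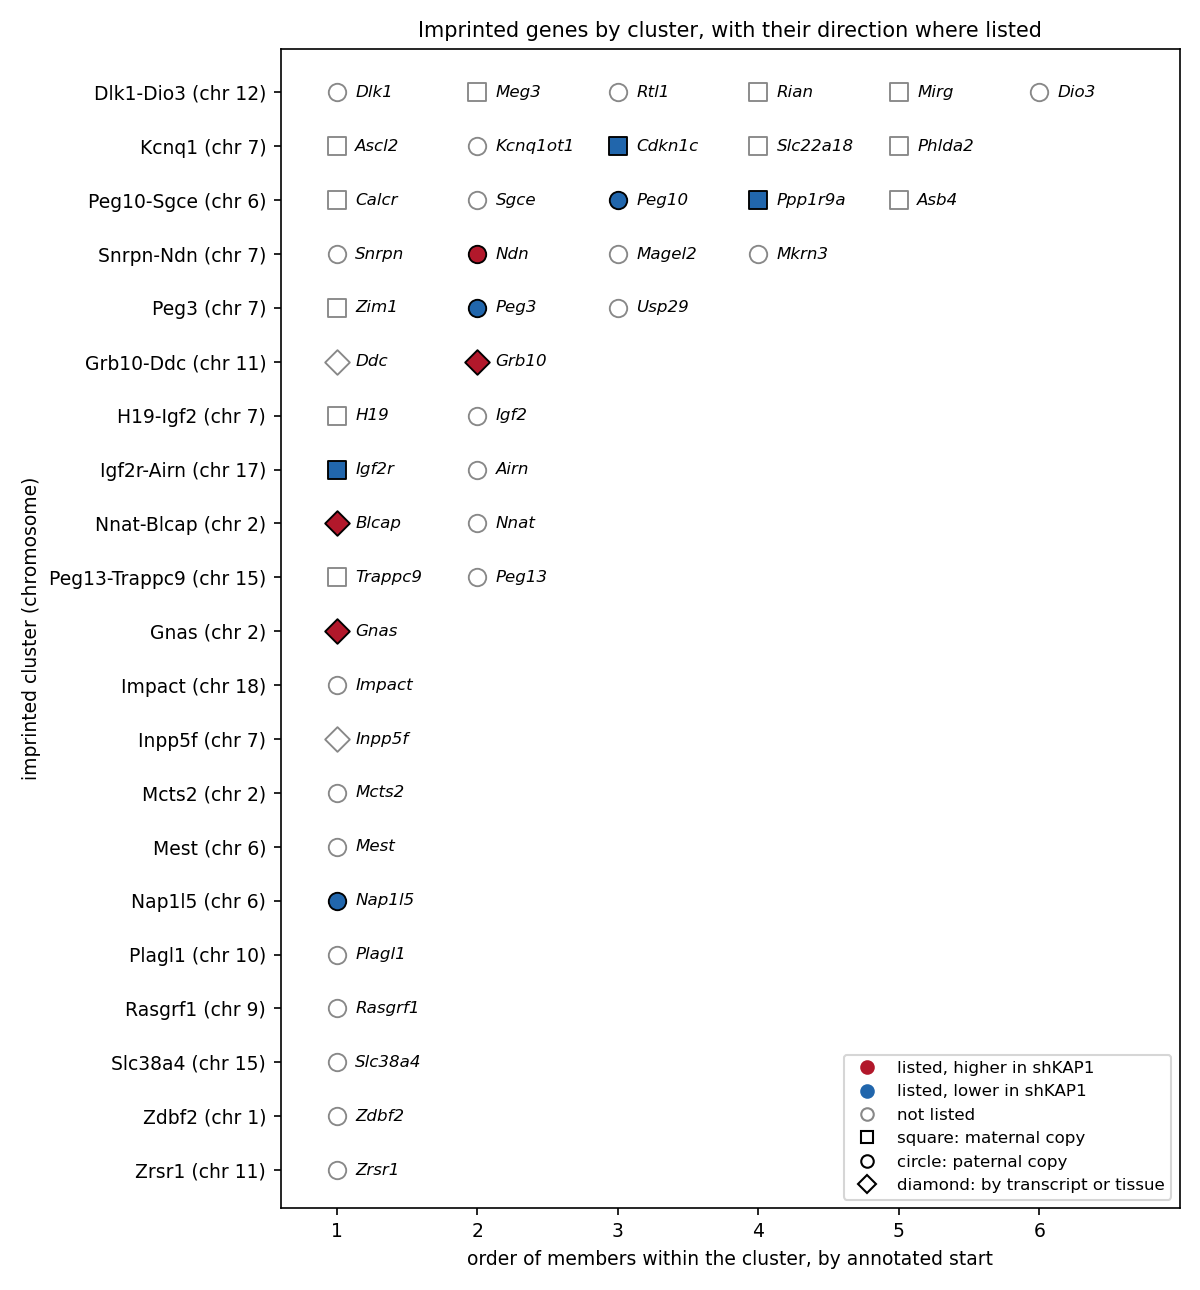
All 44 imprinted genes, 1 row per cluster, placed along the horizontal axis by their order within the cluster. Red marks listed genes that were higher in shKAP1, blue those that were lower and open symbols genes that are not listed, and the shape gives the expressed parental copy. Of the 21 clusters, 9 hold a listed gene of the set, and Peg10-Sgce is the one with 2.

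The listed genes whose maternal copy is the expressed one were all lower. They were Cdkn1c, Ppp1r9a and Igf2r, 3 of 14 genes of this kind. Among the 25 genes expressed from the paternal copy, Peg10, Peg3 and Nap1l5 were lower and Ndn was higher. The remaining 5 genes are imprinted differently by transcript or by tissue, and the 3 of them that were listed, Blcap, Grb10 and Gnas, were all higher. The numbers per class are too small for a comparison between classes, and none was tested. The expressed copy was taken from general knowledge of mouse imprinting, not from these libraries. Igf2r and Ppp1r9a are themselves imprinted in some tissues only, and Igf2r is known to be expressed from both copies in mouse neurons. The directions by class thus depend on where both are placed. Without them, Cdkn1c is the only listed gene of the maternal class. Of the 11 genes of the set whose imprinting is limited to some tissues or transcripts, both included, 3 were higher and 2 lower.

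**Figure D2:**
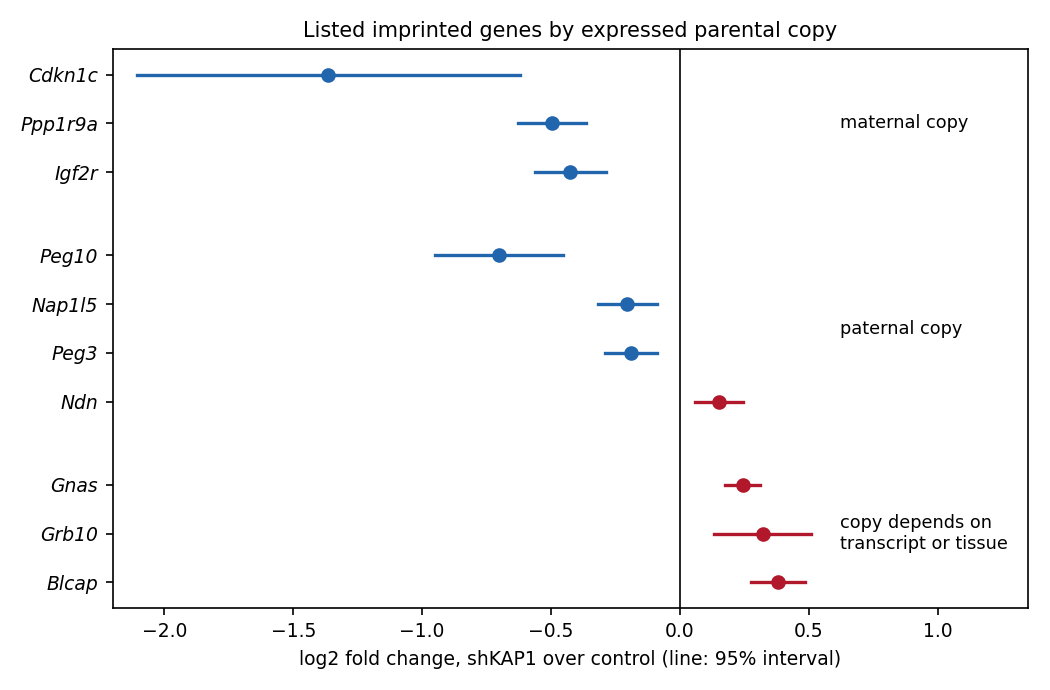
The log2 fold change of each of the 10 listed imprinted genes (point) with its 95% interval (line), grouped by the expressed parental copy. The interval of Cdkn1c, -2.11 to -0.62, is the widest, and the 3 genes of the lowest block, Gnas, Grb10 and Blcap, lie right of 0. Igf2r and Ppp1r9a stand in the maternal block, although they are imprinted in some tissues only.

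Cdkn1c had the lowest log2 fold change of the 10 listed genes. It encodes p57, an inhibitor of cyclin-dependent kinases that holds adult neural stem cells in quiescence, and lies in the Kcnq1 cluster (ENSMUSG00000037664.13, chromosome 7, 143458339 to 143461050, minus strand). The authors' deposited table gives Cdkn1c a log2 fold change of -1.36 (SE 0.38, DESeq2 adjusted p = 0.00239), with 156.6 as its mean normalized count. That leaves 38.9% of the control level, with a 95% interval of 23.2 to 65.0%. Only 28 listed genes, Cdkn1c included, had a fold of this size or larger. Its SE is larger than that of 99.1% of listed genes and stands beside a median of 0.19 among the 185 listed genes within 2-fold of its count. The exons of Cdkn1c overlap the antisense gene Gm44732 by 625 bases, and the counting is not stated to use strand, so its value is uncertain to that extent. None of the other 4 genes of the cluster in the set, Ascl2, Kcnq1ot1, Slc22a18 and Phlda2, was listed, although Slc22a18 starts 12.7 kb from Cdkn1c.

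In the Peg10-Sgce cluster, 2 genes were lower. Peg10, a gene derived from a retrotransposon and needed for the mouse placenta, lies at chromosome 6, 4747306 to 4760517, plus strand (ENSMUSG00000092035.8). Its log2 fold change in the authors' deposited table is -0.70 (SE 0.13, DESeq2 adjusted p = 6.81e-07), or 61.5% of control (95% interval 51.8 to 73.0), at a mean normalized count of 8055.8. The SE of Peg10 stands beside a median of 0.05 among the 1062 listed genes within 2-fold of its count. Ppp1r9a encodes neurabin, which ties protein phosphatase 1 to actin, and lies 142.4 kb downstream at 4902917 to 5165661 on the same strand (ENSMUSG00000032827.15). Its log2 fold change in the authors' deposited table is -0.50 (SE 0.07, DESeq2 adjusted p = 1.86e-11), which is 70.9% of control (95% interval 64.6 to 77.7). The intervals of Peg10 and Ppp1r9a overlap. Peg10 is expressed from the paternal copy, and Ppp1r9a from the maternal copy in some tissues only. Which copies were used in these cells was not measured. Sgce, which encodes a sarcoglycan, starts 98 bases from Peg10 in the opposite direction and was not listed. Asb4 and Calcr of the same cluster were not listed either.

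Igf2r encodes the receptor that carries IGF2 and lysosomal enzymes to lysosomes (ENSMUSG00000023830.14, chromosome 17, 12682406 to 12769664, minus strand). In the authors' deposited table it has a log2 fold change of -0.43 (SE 0.07, DESeq2 adjusted p = 4.93e-08), or 74.4% of control (95% interval 67.7 to 81.9). Airn, the noncoding RNA that silences Igf2r on the paternal copy and overlaps it on the other strand without shared exonic bases, was not listed.

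Peg3 and Nap1l5 were lower by small amounts. Peg3, a zinc finger gene at chromosome 7, 6703892 to 6730431, minus strand (ENSMUSG00000002265.17), has a log2 fold change of -0.19 (SE 0.05, DESeq2 adjusted p = 0.00199) in the authors' deposited table, at a mean normalized count of 19298.7. Nap1l5 encodes a relative of the nucleosome assembly protein 1 family and lies inside Herc3 on the opposite strand, at chromosome 6, 58905233 to 58907076 (ENSMUSG00000055430.4). It stands at -0.20 (SE 0.06, DESeq2 adjusted p = 0.00372) in the authors' deposited table. The levels left are 87.7% of control for Peg3 (95% interval 81.7 to 94.1) and 86.8% for Nap1l5 (95% interval 80.2 to 94.1). Of the Peg3 cluster, Usp29, which starts 146 bases from Peg3, and Zim1 were not listed.

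Of the 4 genes of the set in the Snrpn-Ndn cluster, Ndn alone was listed. The cluster is orthologous to the human Prader-Willi region. It encodes necdin, a growth suppressor of the MAGE family (ENSMUSG00000033585.5, chromosome 7, 62346569 to 62350262, plus strand). In the authors' deposited table Ndn has a log2 fold change of 0.15 (SE 0.05, DESeq2 adjusted p = 0.00871), which is 111.1% of control (95% interval 104.1 to 118.5) and the smallest change of the 10 genes. Magel2, 26.7 kb away, Mkrn3 and Snrpn were not listed.

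Blcap, Grb10 and Gnas were higher. Blcap encodes a small protein first described in bladder cancer, and holds Nnat, a paternally expressed gene of developing brain, in an intron (ENSMUSG00000067787.10, chromosome 2, 157556362 to 157571274, minus strand). The authors' deposited table gives Blcap at 0.38 (SE 0.05, DESeq2 adjusted p = 6.46e-11), or 130.2% of control (95% interval 121.1 to 139.9), while Nnat was not listed. Grb10 encodes an adaptor that restrains insulin and IGF receptor signalling, and is expressed from the paternal copy in mouse neurons and from the maternal copy in most other tissues (ENSMUSG00000020176.17, chromosome 11, 11930508 to 12038683, minus strand). Its log2 fold change in the authors' deposited table is 0.32 (SE 0.10, DESeq2 adjusted p = 0.00549), or 124.9% of control (95% interval 109.6 to 142.4). Gnas, at chromosome 2, 174284320 to 174346744, plus strand (ENSMUSG00000027523.20), encodes the stimulatory G protein subunit that activates adenylyl cyclase, beside imprinted transcripts from other promoters. It stands at 0.24 (SE 0.04, DESeq2 adjusted p = 1.84e-10) in the authors' deposited table, or 118.5% of control (95% interval 112.9 to 124.2), with a mean normalized count of 70974.5. The table has 1 value for the whole Gnas locus, so its imprinted transcripts are not separated, and its exons overlap those of the antisense gene Nespas by 988 bases and of Gm20721 by 1469.

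**Figure D3:**
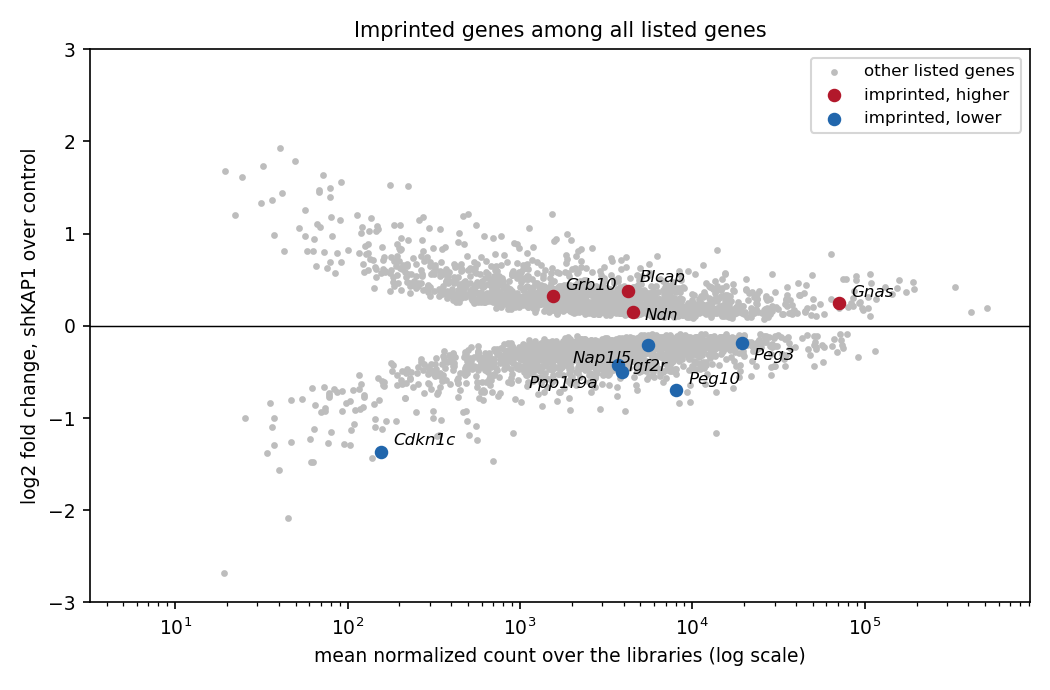
Log2 fold change against mean normalized count (log axis) for all listed genes, with the 10 imprinted genes coloured and named. Cdkn1c has the lowest mean count of the 10, 156.6, and Gnas the highest, 70974.5. The vertical axis ends at 3 on either side of 0 and leaves out 4 other listed genes.

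In the other 12 clusters no gene of the set was listed. They include H19-Igf2, the cluster of the fetal growth factor IGF2, and Dlk1-Dio3, whose 6 genes in the set were all not listed, among them Dlk1, a Notch-like ligand that maintains adult neural stem cells. Plagl1, Mest, Impact, Rasgrf1, Zdbf2, Slc38a4, Zrsr1, Mcts2, Inpp5f and the Peg13-Trappc9 pair were not listed either. The 7 noncoding genes of the set, H19, Meg3, Rian, Mirg, Kcnq1ot1, Airn and Peg13, were all not listed. The table is nearly free of such genes, with 6 listed of 9930 annotated as lincRNA, antisense, processed transcript or sense intronic. Of the 37 protein-coding genes of the set, 27.0% were listed, against 15.3% of all 22028 annotated protein-coding genes, a background that includes genes silent in these cells.

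Direction in this table moved with base composition. Of the listed genes with the lowest transcript GC content, those of the first quintile, 25.1% were higher, against 70.1% in the highest quintile. The 6 lower imprinted genes had GC contents of 44.9 to 59.4% (median 48.1) and the 4 higher ones of 44.5 to 56.4% (median 52.5). Cdkn1c, lower, lies in the highest quintile and Ndn, higher, in the lowest. The part of base composition in these values was not tested.

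Of 28 genes of imprint maintenance or of DNA methylation and its removal, 15 were lower, 1 was higher and 12 were not listed. Of all tested genes, 13.7% were lower and 12.6% higher. The listed genes of this list had a median log2 fold change of -0.23, against -0.13 over all listed genes. This list includes Trim28 itself. It also holds Dnmt3a, Dnmt3b and Dnmt3l, which act in setting DNA methylation, and Tet1, Tet2 and Tet3, which act in its removal. Of these, Dnmt3a and Tet1 were lower and the others were not listed. In the authors' deposited table, the lower genes of smallest adjusted p after Trim28 were Smchd1, a chromatin protein of the inactive X chromosome and some imprinted clusters, at -0.38 (SE 0.05), the maintenance DNA methyltransferase gene Dnmt1 at -0.31 (SE 0.05) and the histone H3 lysine methyltransferase gene Ehmt1 at -0.35 (SE 0.07). Zfp57 was the higher one, at 0.67 in the authors' deposited table (SE 0.25, DESeq2 adjusted p = 0.0336) and a mean normalized count of 249.0. Zfp445, a second zinc finger gene of imprint maintenance, was not listed.

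A further list of imprinted or reportedly imprinted genes outside the set gave 6 higher and 1 lower of 59 with an annotation, which is 11.9% listed. This is below the 15.3% of all annotated protein-coding genes and the 26.3% of all tested genes. The list as a whole thus did not stand out, and its listed genes are given as single values. Peg12, a paternally expressed gene of the same cluster as Ndn, was at 0.50 (SE 0.11, DESeq2 adjusted p = 3.52e-05) in the authors' deposited table, and so was higher along with Ndn. The phospholipid flippase gene Atp10a, on chromosome 7 beside that cluster, was at 0.36 (SE 0.14) in the authors' deposited table. In the Kcnq1 cluster the lipid transfer gene Osbpl5 was higher, at 0.36 (SE 0.08) in the authors' deposited table, 227.7 kb from Cdkn1c, which was lower. H13, a signal peptide peptidase gene that hosts Mcts2, was at 0.14 (SE 0.04) in the authors' deposited table. Bcl2l1, which encodes the survival protein BCL-XL, was at 0.36 (SE 0.10) in the authors' deposited table. Copg2, a coatomer gene that overlaps Mest on the other strand, was the lower one, at -0.18 (SE 0.04) in the authors' deposited table. Ano1, a chloride channel gene, was at 1.25 (SE 0.31) in the authors' deposited table, at a mean normalized count of only 56.9.

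**Figure D4:**
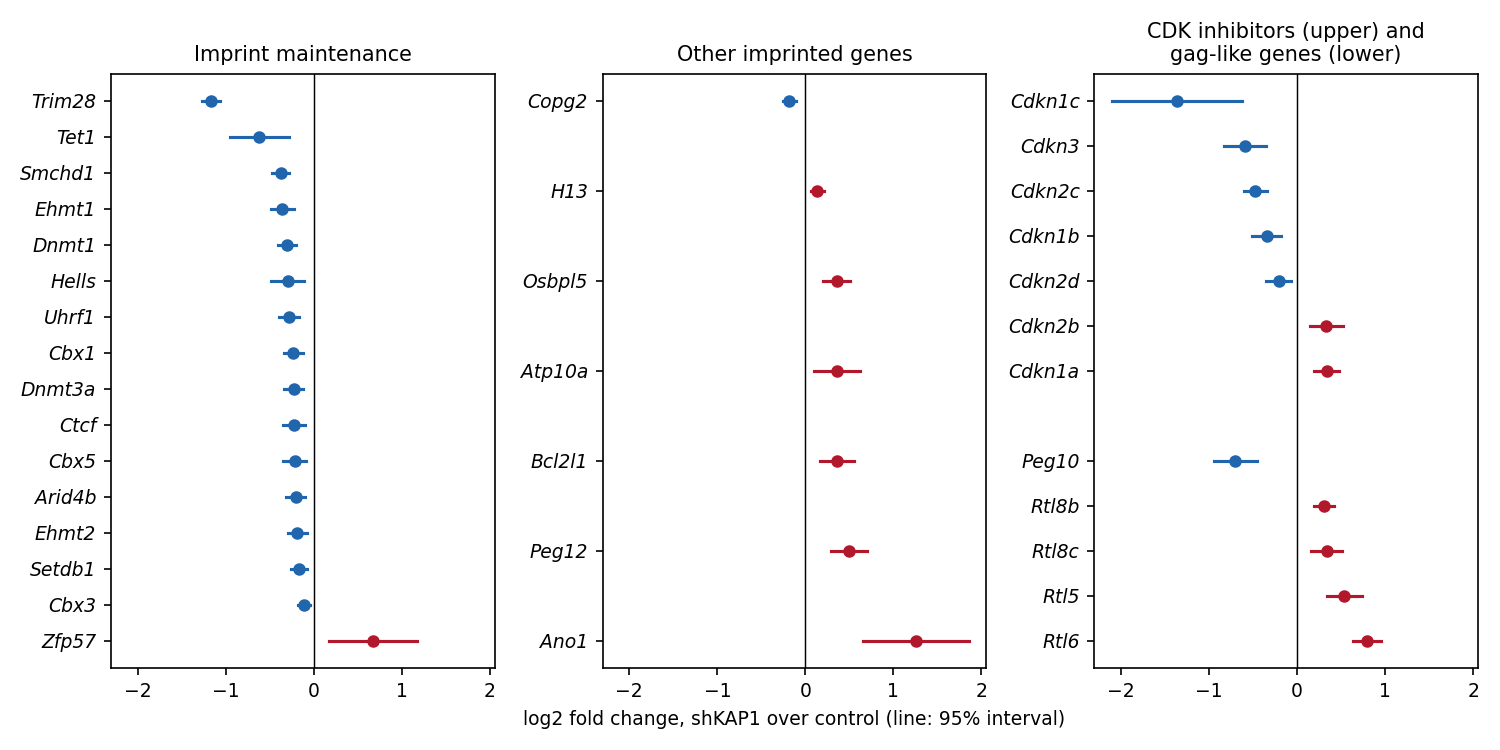
Log2 fold change (point) with its 95% interval (line) for the listed genes of 4 lists. These are imprint maintenance and DNA methylation genes, other imprinted genes, and CDK inhibitors above retrotransposon-derived gag-like genes. Trim28, Cdkn1c and Peg10 have the lowest values of their lists, and Zfp57 is the one gene of the first list right of 0.

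Cdkn1c was set beside the other CDK inhibitors. Of 8 genes, Cdkn1c included, 5 were lower and 2 higher, and Cdkn2a was not listed, beside 13.7% lower and 12.6% higher of all tested genes. Cdkn1b, which encodes p27, was at -0.34 (SE 0.09), Cdkn2c at -0.47 (SE 0.07), Cdkn2d at -0.21 (SE 0.07) and Cdkn3, a phosphatase gene that acts on CDK2, at -0.59 (SE 0.12) in the authors' deposited table. Cdkn1a, which encodes p21 and is induced by p53, was at 0.33 (SE 0.07) and Cdkn2b at 0.33 (SE 0.10) in the authors' deposited table. The 3 members of the p21, p27 and p57 family thus did not share a direction.

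Peg10 was set beside 20 other genes of retrotransposon or related gag origin with an annotation. Peg10 was the one listed gene of these that was lower, and 4 were higher, with 16 of the 21 not listed, among them the imprinted Rtl1. This is 23.8% listed, beside 26.3% of all tested genes and 15.3% of all annotated protein-coding genes. The higher ones were Rtl6 at 0.79 (SE 0.08, DESeq2 adjusted p = 4.55e-19), Rtl5 at 0.54 (SE 0.10), Rtl8c at 0.33 (SE 0.09) and Rtl8b at 0.30 (SE 0.06) in the authors' deposited table. Rtl8b and Rtl8c are near-identical copies whose reads may be split between them, so their values are uncertain.

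For Igf2r and Grb10 the IGF and insulin axis gave 3 higher and 3 lower of 21 genes, or 28.6% listed, near the 26.3% of all tested genes. That share is above the 15.3% of all annotated protein-coding genes, a background that includes genes silent in these cells. Igf1r, the main signalling receptor of both IGFs, was lower along with Igf2r, at -0.37 (SE 0.07) in the authors' deposited table. The secreted IGF-binding protein genes went either way, with Igfbp3 at 0.78 (SE 0.21), Igfbp2 at 0.35 (SE 0.09) and Igfbp5 at -0.92 (SE 0.22) in the authors' deposited table. For Gnas, the list of G protein, adenylyl cyclase, PKA and CREB genes gave 4 higher and 3 lower of 23, or 30.4% listed. This share too is near the 26.3% and above the 15.3%. In the authors' deposited table the higher genes beside Gnas were Prkar1b, a PKA regulatory subunit, at 0.60 (SE 0.15), the G protein subunit gene Gnal at 0.35 (SE 0.14) and the phosphodiesterase gene Pde4b at 0.32 (SE 0.09). The lower ones there were the subunit gene Gnb1 at -0.14 (SE 0.04), the cyclase gene Adcy3 at -0.20 (SE 0.06) and Creb1 at -0.37 (SE 0.05).

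Genes around the clusters were counted as a local background. Within 1 Mb of any gene of the set, 440 other protein-coding genes are annotated, of which 35 were higher and 27 lower. This is 14.1%, against 15.3% of all annotated protein-coding genes. Around the 9 clusters that hold a listed gene of the set, 11 were higher and 10 lower of 208, or 10.1%. These neighbours include olfactory and vomeronasal receptor genes near Peg3 and vomeronasal ones near Nap1l5. They also include imprinted genes outside the set, such as Peg12 and Osbpl5. How many neighbours were expressed in these cells is unknown. Around the Igf2r-Airn cluster 4 of 24 neighbours were listed (16.7%, near the 15.3%), all lower along with Igf2r. The nearest were Mrpl18, a mitochondrial ribosomal protein gene, at -0.16 (SE 0.05), Acat2, an acetyl-CoA acetyltransferase gene, at -0.30 (SE 0.08) and Wtap, of the RNA methylation complex, at -0.13 (SE 0.05) in the authors' deposited table. Around Cdkn1c and the rest of the Kcnq1 cluster 5 of 48 were listed (10.4%, below the 15.3%), all higher, against the direction of Cdkn1c. After Osbpl5, the nearest were Mrgpre, a receptor gene, at 0.56 (SE 0.14) and the cathepsin D gene Ctsd at 0.16 (SE 0.06) in the authors' deposited table. Ctsd was counted through Ascl2, 578.8 kb away, and also lies within 1 Mb of the H19-Igf2 cluster.

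Of 22 neighbours of Gnas, 2 were listed (9.1%), both higher like it. They were the cathepsin gene Ctsz at 0.40 (SE 0.06) and the aminopeptidase-like gene Npepl1 at 0.25 (SE 0.06) in the authors' deposited table. Of 7 neighbours of Grb10 and Ddc, 1 was listed (14.3%). This was Fignl1, an AAA ATPase gene of DNA repair, lower at -0.25 (SE 0.06) in the authors' deposited table. Of 30 neighbours of Blcap and Nnat, 5 were listed (16.7%, near the 15.3% of all annotated protein-coding genes), 3 lower and 2 higher. The nearest were the retinoblastoma-like gene Rbl1 at -0.27 (SE 0.05), the kinetochore gene Dsn1 at -0.22 (SE 0.07) and the transcription factor gene Tgif2 at -0.38 (SE 0.07) in the authors' deposited table. Farther away, the myosin light chain gene Myl9 was at 1.06 (SE 0.12) and the synaptic scaffold gene Dlgap4 at 0.26 (SE 0.07) in the authors' deposited table, both named after their values were seen. Around the Peg10-Sgce cluster 2 of 15 were listed (13.3%). They were Vps50 of the endosomal recycling complex at 0.15 (SE 0.05) and the mitochondrial carrier gene Slc25a13 at -0.34 (SE 0.09) in the authors' deposited table. Around the Peg3 cluster 1 of 41 was listed (2.4%). This was Gm45844, a gene model 245.8 kb from Usp29, at -1.22 (SE 0.34) in the authors' deposited table, at a mean normalized count of 60.5. Peg12 was the 1 listed of 6 around the Snrpn-Ndn cluster (16.7%), and Nap1l5 had none among 15.

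**Figure D5:**
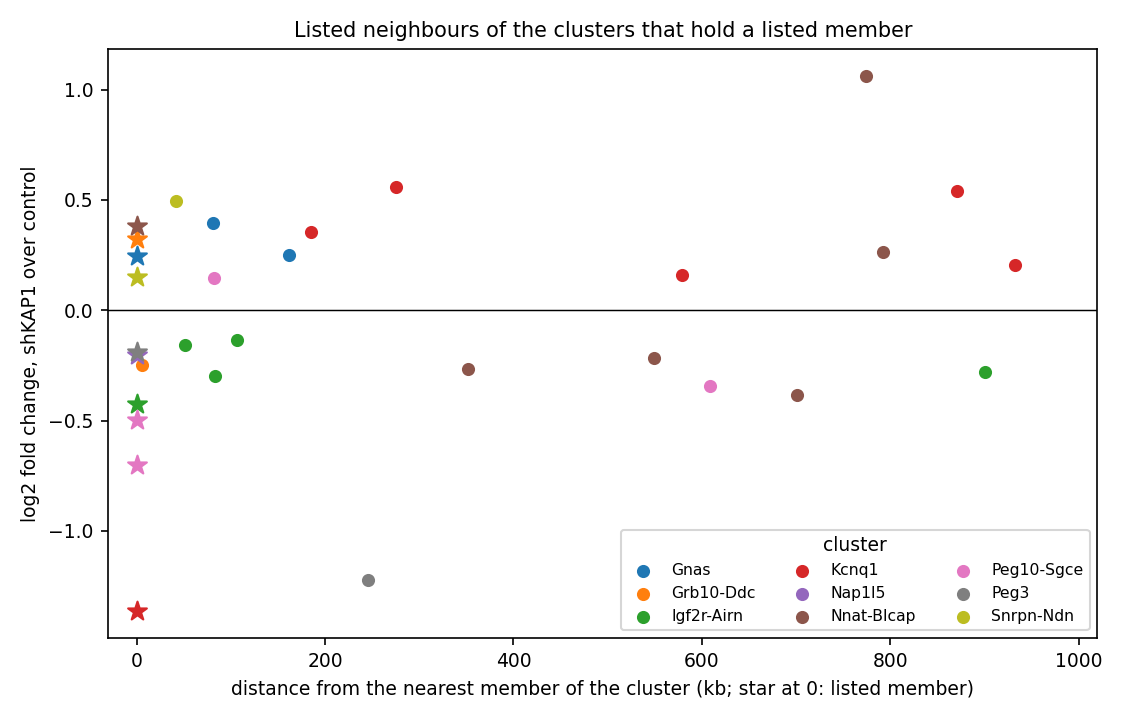
Log2 fold change of listed protein-coding neighbours against their distance in kb from the nearest gene of the cluster, for the 9 clusters with a listed gene of the set (stars at 0). Neighbours of Kcnq1 (5 points) lie above 0 and those of Igf2r-Airn (4 points) below.

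Markers of the cultured cells were checked on the same table. Of all tested genes, 26.3% were listed, 12.6% higher and 13.7% lower. Of 7 neural stem cell markers, Vim, Fabp7, Slc1a3 and Nes were listed and higher, with mean normalized counts of 96600 to 193157, and Sox2, Pax6 and Gfap were not listed. Dcx, a marker of neuroblasts, was at -0.62 (SE 0.18) in the authors' deposited table. None of 6 microglia, 5 endothelial or 3 choroid plexus markers was listed, whereas 2 of 7 fibroblast and mural markers, Acta2 and Tagln, were higher at 1.03 and 0.87 in the authors' deposited table. Olig2 of the oligodendrocyte lineage was at 0.20 (SE 0.08) and Foxj1 of ependyma at 0.59 (SE 0.07) in the authors' deposited table. Each was the 1 listed of 3 markers, as Pdgfra and Sox10, and Tmem212 and Rarres2, were not listed. The part of a changed cell mix in the values of the imprinted genes was not tested.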

How the data were processed

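RNA from 4 shKAP1 and 3 control libraries was sequenced after poly(A) selection with strand marking by dUTP, per the labels' protocols. Trim Galore 0.4.4, kallisto, DESeq2 and GRCm38 are named in the submitters' processing notes, and nothing more on versions, annotation or model is given in the sources used here. The authors deposited 1 table of a comparison. Its columns, per the file headers, are the mean normalized count (a signal averaged over libraries), the log2 fold change with its SE, a signed fold change listed but not used, the Wald score, and raw and adjusted p-values. Nothing was refitted. The planned count tests were replaced by counts of listed genes, since the deposited table has no column per library. Depth per library is unknown, so no counting interval was given.

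Symbols, coordinates and GC content (median over a gene's transcripts) came from GENCODE M21, which matched 3388 of 3389 identifiers without version. For Peg3 and Gnas the deposited identifier has a version other than that of M21, whose coordinates are given. The 12905 genes with an adjusted p were recovered as adjusted p times rank divided by p, within 0.01, in 85.2% of lines, a step tested on simulated p-values. Intervals of 95% are the log2 fold change and SE under a normal approximation. Promoter windows are RefSeq's, from GRCm38.p6. Of the fixed lists, 4 symbols had no annotation match. Python 3.11.15, pandas 2.3.3 and scipy 1.17.1 were used.

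The 44 genes and all lists were chosen with earlier results of these data known. Every listed gene of the set is named. Of a list with at most 12 listed genes each is named, otherwise values are given for the 4 of smallest adjusted p per direction. Of neighbours, the rule was at most the 3 nearest listed ones per cluster.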

Additional observations from a re-analysis of the deposited data

How the results depend on the processing

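The 10 listed imprinted genes (4 higher, 6 lower, in 9 clusters) all passed an adjusted p of 0.01 and a mean normalized count of 100. Of all 3389 listed genes, 2283 passed the first limit and 3318 the second, so the count limit removes few genes. Identifiers matched with their version left 8, in 7 clusters, beside 3278 of all listed genes. At least 1.5-fold left 2, with 0 higher and 2 lower in 2 clusters. A 95% interval beyond 1.2-fold left 5 in 4 clusters, with 1 higher. A Bonferroni limit left 5 in 4 clusters, 2 higher and 3 lower. Without genes whose imprinting is limited to some transcripts or tissues 5 of 33 were left (15.2%), in 5 clusters, with 1 higher. Of the 11 genes of limited imprinting 5 were listed (45.5%). Of all tested genes 26.3% were listed, and how many of either group were tested is unknown. These limits leave fewer genes by construction. No paired analysis was possible because the deposited values are not split by library, although numbers 1, 2 and 4 occur in both groups. Other tools and scalings, and leaving out single libraries, were not run for the same reason.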

Other observations

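Some of the 12 clusters in which no gene of the set was listed had listed neighbours. Of 15 protein-coding genes within 1 Mb of Slc38a4, a paternally expressed amino acid transporter gene, 6 were listed, 4 of them lower. They include its relatives Slc38a2 and Slc38a1, neutral amino acid transporters, at -0.40 (SE 0.05) and -0.46 (SE 0.08) in the authors' deposited table. Around Mcts2, 12 of 53 were listed, 9 of them higher, among them Id1, a target of BMP signalling 48.3 kb away, at 0.77 (SE 0.10) in the authors' deposited table. Around the 6 genes of Dlk1-Dio3, 4 of 23 were listed, 2 in each direction, and around Plagl1 none of 11. The listed shares were 40.0% around Slc38a4, 22.6% around Mcts2 and 17.4% around Dlk1-Dio3, beside 15.3% of all annotated protein-coding genes. These clusters and genes were singled out after their values were seen, and no test was made.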
